A study of Homo sapiens with 11 samples.

Results

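Collagen genes were taken as every row of the deposited gene table whose symbol was COL, a number, the letter A and a number, which gave 44 genes among 60605 rows. They comprised 11 chains of fibrillar collagens, 8 chains of basement membrane collagens and 25 chains of other collagens. Their transcripts were measured by polyA RNA sequencing in 11 libraries of ARPE-19, an established human cell line derived from the retinal pigment epithelium (RPE), the pigmented layer behind the photoreceptors. Each library came from a line that stably carried an open reading frame and had expressed it for 4 days. The control line expressed GFP, a fluorescent protein (n = 3). The other lines expressed Oct4, Sox2 or Klf4 alone, or Oct4, Sox2 and Klf4 together, called OSK (n = 2 each). The library names of these 4 lines also carry the tag mC, which the labels do not explain and the names of the GFP libraries lack, so what it stands for and the factors cannot be told apart. The factors are transcription factors used to reprogram cells. The labels give neither the promoter of the reading frames nor the number of clones behind a line. They do not say that replicates were separate cultures, so p-values measure the spread between these libraries, which may be technical.

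Collagens are extracellular proteins in which 3 chains wind into a triple helix, and the chain a cell makes decides which helix it can build. Fibrillar collagens form banded fibrils, with types V and XI starting and limiting the fibrils of types I and II. Type IV forms the sheet-like network of basement membranes, including the one under the RPE, which is the inner layer of Bruch's membrane. Its chains are encoded in head-to-head gene pairs. Among the other collagens, type VIII forms open networks, type VII forms the anchoring fibrils that tie a basement membrane to the stroma, and the FACIT group sits on the surface of fibrils.

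The values are normalised counts, the authors' gene counts divided by 1 factor per library, and from 15053300 to 19791775 reads per library were recovered from them. GFP replicate 1 and OSK replicate 1 stood apart from the rest. They had reads on 42956 and 32493 features, against 25853 to 26971 in the other 9 libraries. A gene was tested when it had at least 10 normalised counts in at least 2 libraries, which 35 of the 44 collagen genes did (9 fibrillar, 8 basement membrane and 18 other). Of these, COL5A3, COL13A1, COL15A1, COL17A1 and COL23A1 did not pass once GFP replicate 1 and OSK replicate 1 were left out. COL15A1 and COL17A1 passed through GFP replicate 1 together with Oct4 replicate 1 (17.4 normalised counts) and Klf4 replicate 1 (11.6), respectively. None of these 5 was called in a comparison with GFP. COL3A1, COL6A3, COL6A5, COL9A1, COL19A1, COL21A1, COL22A1, COL24A1 and COL25A1 were not tested. Their highest value outside GFP replicate 1 was 8.8 normalised counts. Of 14 RPE markers, 11 reached the same minimum, with RPE65, DCT and TTR near 0, and no blood marker of 6 did. The RPE marker sum was 33489 to 37191 normalised counts in GFP, 18376 to 18856 in Oct4, 21438 to 22127 in Sox2, 25726 to 28783 in Klf4 and 15845 to 16145 in OSK. Most of it came from the keratins KRT8 and KRT18, and without them the sum was 12784 to 16485 in GFP, 4277 to 4851 in Oct4, 2454 to 2517 in Sox2, 8129.8 to 9842 in Klf4 and 5572 to 5945 in OSK, so that Sox2 was lowest. The pigment cell gene PMEL had 4094, 5281 and 6067 normalised counts in GFP, against 101 and 179.8 in Sox2, and TYRP1 had 2168, 2491 and 2813, against 119 and 149. The sum of 9 fibroblast and mesenchymal markers, of which 6 reached the minimum and DPT was at 0, was 11296 to 11930 normalised counts in GFP, 8471 to 10489 in Oct4, 6270.3 to 7831 in Sox2, 6480 to 7418 in Klf4 and 4760 to 5360 in OSK, most of it from PDGFRB. The Schwann and neural sum (4 of 5 markers) was 461 to 556 in GFP and 118 to 198 in the factor lines, and the endothelial sum (3 of 5) was 1092 to 1358 in GFP and 541 to 896 in the factor lines. The part of these markers in the collagen results was not tested. In bulk RNA, fewer cells that express a gene and less RNA per cell cannot be told apart.

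Per kilobase of exon, COL18A1 was the most abundant collagen gene in GFP, with 4744 normalised counts per kilobase. COL18A1 encodes the core chain of a basement membrane proteoglycan whose C-terminal fragment is endostatin. It was followed by COL8A1 (1493 normalised counts per kilobase), COL11A1 (1214), COL4A2 (836), COL4A1 (652), COL9A2 (530), COL12A1 (437), COL1A1 (393), COL4A4 (354), COL6A1 (279) and COL4A3 (229). In OSK the order per kilobase differed: COL4A3 stood second with 1787, COL7A1 moved from rank 16 in GFP to rank 8, and COL1A1 from rank 8 to rank 15. COL1A1 and COL6A1 were abundant while their usual partner chains were nearly silent. COL1A2 had 10.3 to 27.8 normalised counts over all 11 libraries and COL6A2 had 9.29 to 29.8, and neither was called in a comparison with GFP. COL6A3 stayed at or below 4.34 normalised counts in every library but GFP replicate 1.

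Between 14 and 20 of the 35 collagen genes tested were called against GFP in each line, at a Benjamini-Hochberg adjusted p under 0.05 (limma). In Oct4, 14 rose and 4 fell, 51.4% of those tested, where 37.3% of all 18828 genes were called (20.1% higher, 17.2% lower). In Sox2, 13 rose and 7 fell, 57.1% against 41.6% of all genes (21.7% higher, 19.9% lower). In Klf4, 12 rose and 6 fell, 51.4% against 33.5% (17.6% higher, 16% lower). In OSK, 6 rose and 8 fell, 40% against 39.7% (19.7% higher, 20% lower). The rises include COL28A1 in Oct4 and COL14A1 in Sox2, which would not have passed the minimum without those lines. Of the 35, the 5 genes that did not pass the minimum without GFP replicate 1 and OSK replicate 1 were not called in these comparisons. Over the other 30 the shares were 60%, 66.7%, 60% and 46.7%. The shares of all genes above were not restricted in this way, so these 4 shares cannot be set against them. Like shares are those of the fit without both libraries, below. By class, in Klf4 7 of the 8 basement membrane genes rose and none fell, whereas 3 of 9 fibrillar genes fell and 2 rose. In Oct4 and in Sox2, 4 fibrillar genes rose and 1 fell. In OSK, 4 basement membrane genes rose and 3 fell, 1 fibrillar gene rose and 2 fell, and of 18 other collagens COL7A1 alone rose and 3 fell. The median log2 change depended on those 5 genes. Over all 35 it was 0.18 in Oct4, -0.25 in Sox2, -0.01 in Klf4 and -0.20 in OSK, beside -0.02, -0.02, -0.02 and -0.01 over all 18828 genes. Over the other 30 it was 0.45, 0.20, 0.10 and -0.17, with no median of all genes restricted in the same way. These comparisons share the GFP libraries. Without Oct4 replicate 1 the Oct4 count was 11 (8 higher, 3 lower). Without both GFP replicate 1 and OSK replicate 1, a setting chosen after seeing the data, the counts in Oct4, Sox2, Klf4 and OSK were 20, 20, 20 and 16 of 30 genes tested (66.7%, 66.7%, 66.7% and 53.3%), where 39.4%, 43.5%, 35.8% and 35.3% of all 18035 genes were called. The medians were then 0.35, 0.73, 0.34 and 0.02.

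**Figure D1:**
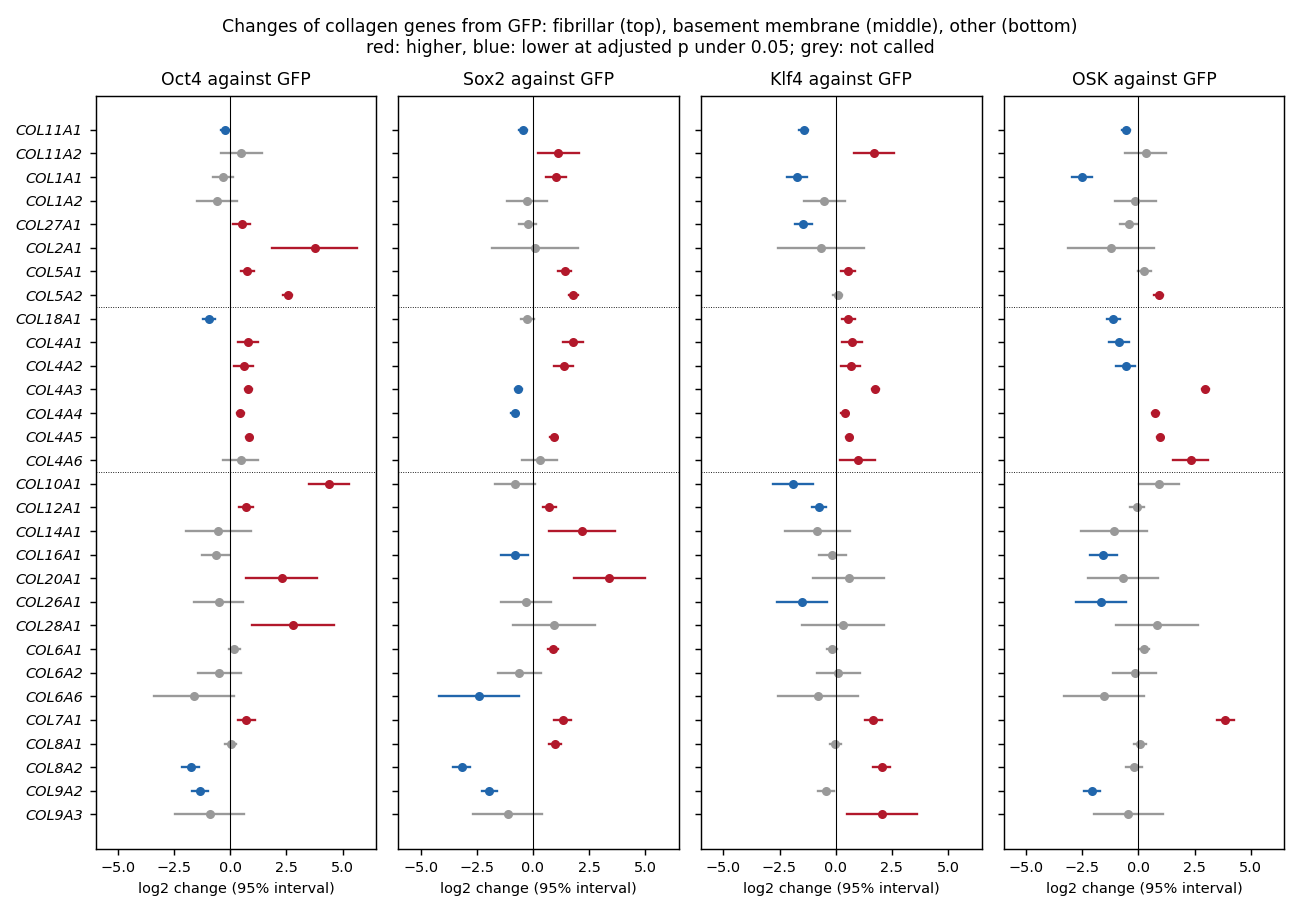
Log2 change from GFP, with 95% intervals, of the 30 collagen genes that passed the minimum without GFP replicate 1 and OSK replicate 1, in Oct4, Sox2, Klf4 and OSK. Red marks a gene higher and blue a gene lower at adjusted p under 0.05 (limma on log2(value + 1)), grey a gene not called, and dotted lines part the fibrillar, basement membrane and other collagens. COL4A3 and COL7A1 in OSK reach 2.97 and 3.87, and COL10A1 in Oct4 reaches 4.40.

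Among fibrillar collagens, COL1A1, the main chain of type I collagen, was higher in Sox2 and lower in Klf4 and OSK. It had 2884, 4845 and 3841 normalised counts in GFP, 3643 and 2521 in Oct4, 8369 and 7029 in Sox2, 960.01 and 1357 in Klf4 and 557 and 796 in OSK. The Sox2 libraries lay above and the Klf4 and OSK libraries below every GFP library, and Oct4 overlapped GFP. The log2 change from GFP was 1.02, SE 0.21, limma adjusted p = 0.000753 in Sox2. In Klf4 it was -1.72, SE 0.21, limma adjusted p = 7.72e-06, and in OSK -2.50, SE 0.21, limma adjusted p = 8.5e-08. OSK was also below Klf4 (-0.78, SE 0.23, limma adjusted p = 0.021), a call lost without GFP replicate 1 and OSK replicate 1 (-0.52, adjusted p = 0.0891). In Oct4 the change of COL1A1 was -0.32 (adjusted p = 0.256), and -0.51 without GFP replicate 1 (limma adjusted p = 0.0312).

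The type V chains, which start and limit type I fibrils, did not move in step. COL5A1 had 1056, 1672 and 1402 normalised counts in GFP and 2391 and 2171 in Oct4. It had 3815 and 3383 in Sox2, 1816 and 2169.8 in Klf4 and 1544 and 1714 in OSK. Oct4, Sox2 and Klf4 lay above all GFP libraries, and OSK overlapped them. COL5A1 rose by 1.41 (SE 0.14) on the log2 scale in Sox2 (limma adjusted p = 6.07e-07), 0.75 (SE 0.14) in Oct4 (adjusted p = 0.000477) and 0.55 (SE 0.14) in Klf4 (adjusted p = 0.00587). The last call was lost without Klf4 replicate 2 (0.42, adjusted p = 0.0946). COL5A2 had 917, 1008 and 973 normalised counts in GFP, 5519 and 5822 in Oct4, 3863 and 2928 in Sox2, 967 and 1099 in Klf4 and 1839 and 1765 in OSK. Oct4 was highest, then Sox2 and then OSK, without overlap, and Klf4 overlapped GFP. The log2 change was 2.55, SE 0.10, limma adjusted p = 1.83e-11 in Oct4, a 5.87-fold difference of means. It was 1.80, SE 0.10, adjusted p = 5.79e-10 in Sox2 and 0.90, SE 0.10, adjusted p = 1.94e-06 in OSK (limma). Each difference among Oct4, Sox2 and OSK passed as well, with 0.75 for Oct4 against Sox2 (adjusted p = 4.16e-05) and -0.90 for OSK against Sox2 (adjusted p = 4.85e-06; limma).

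COL11A1, a chain of the fibril-starting type XI collagen, was lower than GFP in all 4 lines. It had 10989.95, 11229 and 10896 normalised counts in GFP, 9604 and 9195 in Oct4, 8839.95 and 7555 in Sox2, 3727 and 4496 in Klf4 and 7091 and 7840.1 in OSK, so that no library of a factor line reached the GFP range. The fall was largest in Klf4 (log2 change -1.43, SE 0.09, limma adjusted p = 4.61e-09), followed by OSK (-0.57, SE 0.09, adjusted p = 6.86e-05) and Sox2 (-0.43, SE 0.09, adjusted p = 0.000724; limma). In Oct4 the change of -0.23 just passed (limma adjusted p = 0.0464). That Oct4 call was lost in 9 of 16 alternatives, among them edgeR (adjusted p = 0.0596) and leaving out Oct4 replicate 1 (adjusted p = 0.107) or Oct4 replicate 2 (adjusted p = 0.225), and it was also lost without GFP replicate 2 or GFP replicate 3. COL11A2, the second chain of type XI, had 96.3, 30.4 and 23.3 normalised counts in GFP, 61.5 and 54.9 in Oct4, 95.4 and 86.5 in Sox2, 102 and 182 in Klf4 and 57.5 and 46.2 in OSK. Both Klf4 libraries were above every GFP library, and Sox2, Oct4 and OSK lay between GFP replicate 1 and the other two. The Klf4 change was 1.71, SE 0.43, limma adjusted p = 0.00559, and 1.29 without Klf4 replicate 2 (adjusted p = 0.0973). The Sox2 change of 1.13 (limma adjusted p = 0.0448) was lost in 10 of 16 alternatives, among them leaving out GFP replicate 2, GFP replicate 3, Sox2 replicate 1 or Sox2 replicate 2. Without GFP replicate 1, COL11A2 was also called higher in Oct4 (1.10) and OSK (0.93).

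2 further fibrillar genes changed in single lines or in opposite directions, and they are named outside the rule for genes, after their values were seen. COL2A1, the cartilage fibril chain, had 156 and 114 normalised counts in Oct4, 49.6, 3.03 and 3.89 in GFP and 1.1 to 13.5 in the other lines. Both Oct4 libraries stood above all others (log2 change from GFP 3.75, SE 0.90, limma adjusted p = 0.00362), and without GFP replicate 1 and OSK replicate 1 the change was 4.92. COL27A1, a fibrillar chain of cartilage, had 303, 242 and 222 normalised counts in GFP, 420.4 and 311 in Oct4 and 77.5 and 109.7 in Klf4. It rose in Oct4 (0.51, SE 0.18, limma adjusted p = 0.033) and fell in Klf4 (-1.45, SE 0.18, adjusted p = 1.06e-05; limma). Oct4 thus had the highest COL2A1, COL5A2 and COL27A1 means of the 5 groups.

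**Figure D2:**
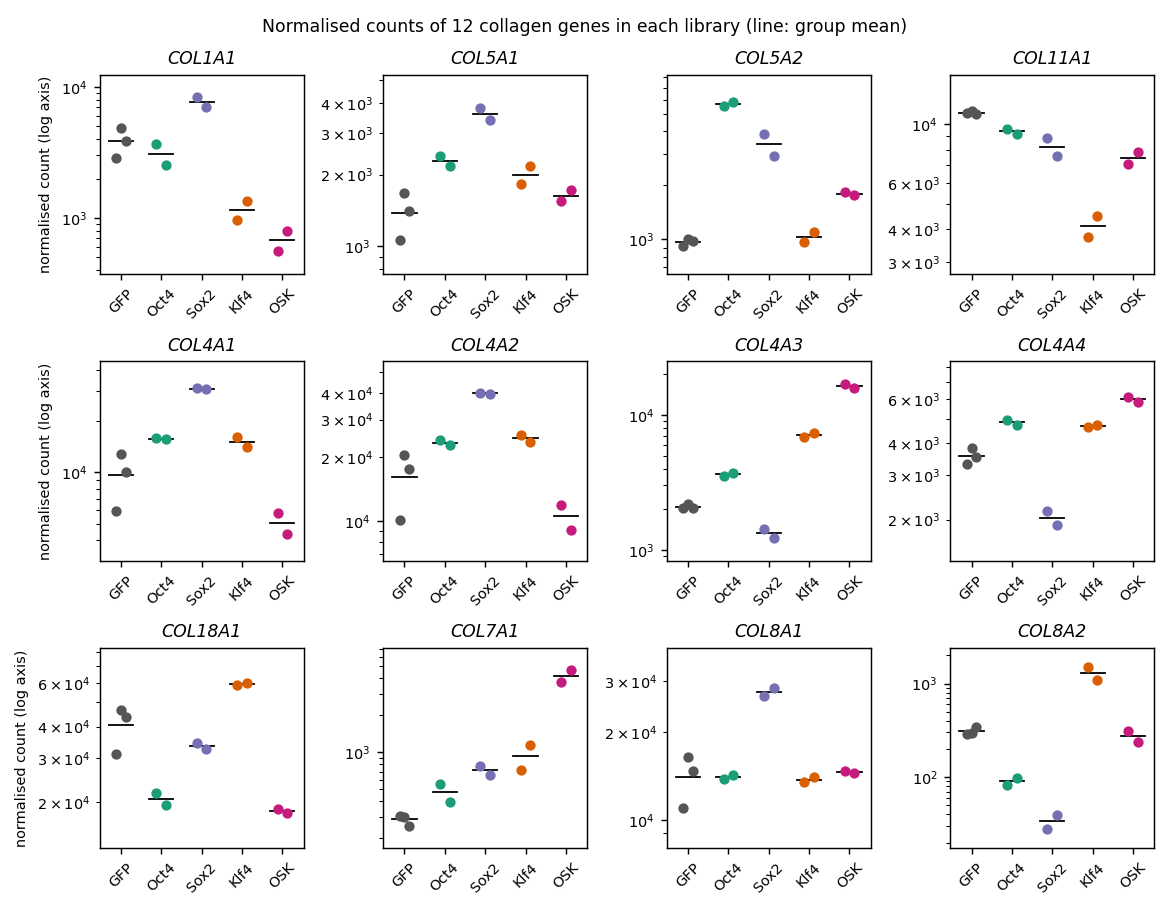
Normalised counts (log axis, with its own range per panel) of 12 collagen genes in each of the 11 libraries of GFP, Oct4, Sox2, Klf4 and OSK, with dots for libraries and a line for the group mean. COL4A3 and COL7A1 are highest in both OSK libraries, COL5A2 in both Oct4 libraries, COL1A1, COL4A1 and COL4A2 in both Sox2 libraries, and COL8A2 and COL18A1 in both Klf4 libraries.

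The basement membrane chains COL4A1 and COL4A2 join in the most widespread type IV helix, and both were highest in Sox2 and lowest in OSK. COL4A1 had 5893, 12807 and 10112 normalised counts in GFP, 15927 and 15716 in Oct4, 31295 and 30909 in Sox2, 16041 and 14172 in Klf4 and 5775 and 4348 in OSK. COL4A2 had 10198, 20517 and 17676 in GFP, 23973 and 22801 in Oct4, 40199.9 and 39546 in Sox2, 25365 and 23691 in Klf4 and 11937 and 9164 in OSK. For both genes the Oct4, Sox2 and Klf4 libraries were above all GFP libraries. GFP replicate 1 was the lowest GFP library, close to OSK for COL4A1 and within the OSK range for COL4A2. COL4A1 rose in Sox2 (1.77, SE 0.21, limma adjusted p = 5.17e-06), as did COL4A2 (1.37, SE 0.20, adjusted p = 3.77e-05; limma), and neither call was lost in any of 16 alternatives. The smaller rises in Oct4 were 0.79 (adjusted p = 0.00792) for COL4A1 and 0.60 (adjusted p = 0.0273) for COL4A2, and those in Klf4 0.72 (adjusted p = 0.0154) and 0.66 (adjusted p = 0.0169; limma). In OSK, COL4A1 fell (-0.87, SE 0.21, limma adjusted p = 0.0039) and COL4A2 fell (-0.56, SE 0.20, adjusted p = 0.0337; limma). These smaller calls were lost in 1 (COL4A1 in OSK) to 8 (COL4A2 in OSK) of 16 alternatives. The COL4A2 call in OSK was lost without GFP replicate 2, GFP replicate 3 or OSK replicate 2 (changes of -0.36, -0.47 and -0.37). The COL4A1 call in OSK was lost without OSK replicate 2 (-0.66, adjusted p = 0.0844). In Oct4 both calls were lost without Oct4 replicate 1 and without Oct4 replicate 2, and in Klf4 both were lost without Klf4 replicate 1 and that of COL4A2 also without Klf4 replicate 2. Without GFP replicate 1 and OSK replicate 1 all were called, at 0.48 in Oct4, 0.41 in Klf4 and -1.39 in OSK for COL4A1, and 0.30, 0.36 and -1.06 for COL4A2.

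COL4A3 and COL4A4, which pair with COL4A5 in the helix of specialised basement membranes, did not follow COL4A1 and COL4A2. COL4A3 had 2033, 2179 and 2048 normalised counts in GFP, 3513 and 3719 in Oct4, 1422 and 1229.6 in Sox2, 6838 and 7289.9 in Klf4 and 16845 and 15770.3 in OSK. The 5 groups did not overlap, with OSK highest, then Klf4, Oct4, GFP and Sox2. OSK was 7.82-fold above GFP in means, a log2 change of 2.97, SE 0.07, limma adjusted p = 1.38e-13. Klf4 was higher by 1.76 (SE 0.07), Oct4 higher by 0.79 (SE 0.07), and Sox2 lower at -0.66 (SE 0.07), all called by limma (adjusted p = 7.49e-11, 3.76e-07 and 2.26e-06). OSK also exceeded Klf4, the next highest line, by 1.21 (SE 0.08; limma adjusted p = 2.83e-08). COL4A4 had 3313, 3843 and 3543 normalised counts in GFP, 4962 and 4746 in Oct4, 2161 and 1897 in Sox2, 4628 and 4728 in Klf4 and 6117 and 5815 in OSK. Its directions were those of COL4A3 with a narrower range: 0.74 in OSK, 0.45 in Oct4, 0.39 in Klf4 and -0.81 in Sox2 (SE 0.08 each; limma adjusted p from 2.87e-07 to 0.000728). None of the COL4A3 and COL4A4 calls against GFP was lost in 16 alternatives.

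The promoter shared by these genes is shown because the ratio of the pair changed. COL4A4 and COL4A3 lie head to head on chromosome 2, with RefSeq starts 419 bases apart. COL4A6 and COL4A5 have the same layout on chromosome X (380 bases), and COL4A1 and COL4A2 on chromosome 13 (127 bases). The upstream sequence of COL7A1, the collagen gene with the largest rise in OSK, is given beside them. The sequences are from RefSeq (GRCh38.p14), 5′ to 3′, with copies of the GC box (GGGCGG, or CCGCCC on the other strand) in capitals. The first lies between the annotated exons of its pair (chr2:227164454-227164564, plus strand). The second is the 250 bases before the start of COL4A5 (chrX:108439588-108439837, plus strand). The third is the 150 bases before the start of COL7A1 (chr3:48595330-48595479, minus strand).
COL4A4/COL4A3: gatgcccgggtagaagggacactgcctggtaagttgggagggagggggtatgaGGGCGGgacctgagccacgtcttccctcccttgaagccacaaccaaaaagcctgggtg
COL4A6/COL4A5: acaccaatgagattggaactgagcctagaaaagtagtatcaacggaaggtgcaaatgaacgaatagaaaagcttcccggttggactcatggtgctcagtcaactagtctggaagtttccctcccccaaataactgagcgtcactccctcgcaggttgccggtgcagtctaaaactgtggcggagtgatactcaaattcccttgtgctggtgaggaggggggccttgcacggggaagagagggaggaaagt
COL7A1: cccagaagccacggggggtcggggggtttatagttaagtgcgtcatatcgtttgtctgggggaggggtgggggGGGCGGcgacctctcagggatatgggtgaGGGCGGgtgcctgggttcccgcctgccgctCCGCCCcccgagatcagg
The GC box occurred once between COL4A4 and COL4A3, nowhere in the run before COL4A5 and at 3 places before COL7A1. In windows from 250 bases before to 50 after the start, searched on both strands, 21 of the 32 collagen genes with a window held a GC box (65.6%), as did 48.3% of 27305 genes. The octamer ATGCAAAT bound by Oct4 was in a window of 2 of the 32 collagen genes (COL19A1 and COL23A1). That is 6.25%, against 2.19% of all genes with a window. Of these 2 genes, COL19A1 was not tested. COL23A1 passed the minimum only through GFP replicate 1 and OSK replicate 1 and was not called against GFP. The SOX core CATTGTT and the CACCC box CCACACCC were in windows of none of them (4.08% and 4.00% of all genes with a window). These counts describe letters in these windows and say nothing of binding.

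COL4A5 was higher in every factor line. It had 918, 954 and 908 normalised counts in GFP, 1652 and 1646 in Oct4, 1842 and 1660.3 in Sox2, 1434 and 1363 in Klf4 and 1770.2 and 1825 in OSK, with all 8 factor libraries above GFP. The log2 changes were 0.83, 0.92, 0.59 and 0.96 (SE 0.07 each; limma adjusted p from 1.72e-08 to 5.19e-06). COL4A6, the partner of COL4A5 in epithelial basement membranes, had 127 and 107 normalised counts in OSK, 38.7, 19.2 and 14.6 in GFP and 26.9 to 58.3 in the other lines. OSK was above every other library (log2 change from GFP 2.34, SE 0.36, limma adjusted p = 8.18e-05), and Klf4, which overlapped GFP, just passed at 0.99 (limma adjusted p = 0.0483). COL4A5 and COL4A6 fall outside the rule for named genes and are given as partner chains.

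COL18A1, the most abundant collagen gene, was highest in Klf4 and lowest in OSK. It had 31033, 46466 and 43816 normalised counts in GFP, 21719.8 and 19459 in Oct4, 34447 and 32445 in Sox2, 58504 and 59764 in Klf4 and 18750.4 and 18084 in OSK. Klf4 lay above all GFP libraries, Oct4 and OSK below them, and Sox2 between GFP replicate 1 and the other two. The log2 change from GFP was 0.57, SE 0.13, limma adjusted p = 0.00279 in Klf4, -0.95, SE 0.13, adjusted p = 2.39e-05 in Oct4 and -1.11, SE 0.13, adjusted p = 4.16e-06 in OSK (limma). In Sox2 it was -0.25 (adjusted p = 0.136), and -0.43 without GFP replicate 1 (limma adjusted p = 2.57e-05). The difference of OSK from Oct4 did not pass (-0.16, 95% interval -0.46 to 0.14, limma adjusted p = 0.414).

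Chains that join in the same helix or network were compared as ratios of normalised counts within a library, which do not depend on the library's factor. For 5 pairs, chosen after the data were seen, the spread of log ratios between the 5 groups was tested exactly over all 17325 ways to divide the libraries into groups of these sizes, with Benjamini-Hochberg adjustment over the 5. The COL4A3 to COL4A4 ratio was 0.567 to 0.614 in GFP, 0.648 and 0.658 in Sox2, 0.708 and 0.783 in Oct4, 1.48 and 1.54 in Klf4 and 2.71 and 2.75 in OSK (exact p = 0.000115, adjusted 0.000577). COL4A3 thus had fewer counts than COL4A4 in GFP and more in Klf4 and OSK. The COL4A1 to COL4A2 ratio moved less, from 0.474 and 0.484 in OSK and 0.572 to 0.624 in GFP to 0.779 and 0.782 in Sox2 (exact p = 0.000404, adjusted 0.000673). The COL5A2 to COL5A1 ratio was 2.31 and 2.68 in Oct4, against 0.603 to 0.868 in GFP and 0.507 and 0.532 in Klf4 (exact p = 0.00133, adjusted 0.00166). The COL8A2 to COL8A1 ratio spanned the widest range, 0.00106 and 0.00139 in Sox2 to 0.0779 and 0.111 in Klf4, with GFP at 0.0182 to 0.0264 (exact p = 0.000231, adjusted 0.000577). The COL4A5 to COL4A6 ratio was 14.0 and 17.1 in OSK and 47.9 and 59.3 in Oct4, with GFP replicate 1 at 23.7 against 49.6 and 62.3 in the other GFP libraries (exact p = 0.0463, also after adjustment).

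**Figure D3:**
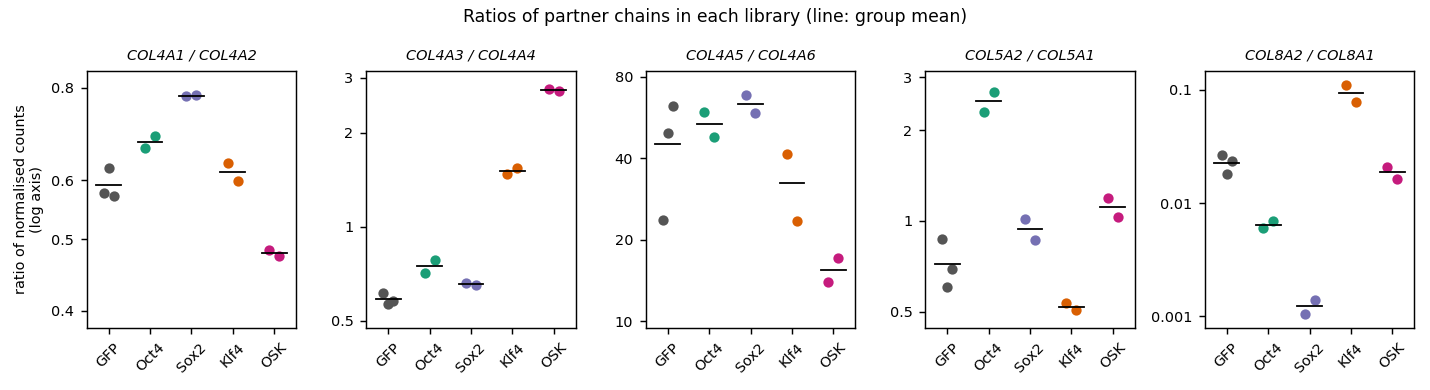
Ratio of normalised counts (log axis) of 5 pairs of partner chains in each of the 11 libraries of GFP, Oct4, Sox2, Klf4 and OSK, with dots for libraries and a line for the group mean. The COL4A3 to COL4A4 ratio is above 1 in both Klf4 and both OSK libraries (1.48 to 2.75), and the COL5A2 to COL5A1 ratio is above 2 in both Oct4 libraries.

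Of the other collagens, COL7A1, the chain of anchoring fibrils, had the largest rise in OSK. It had 303, 301 and 254 normalised counts in GFP, 556 and 394 in Oct4, 779.8 and 649.9 in Sox2, 721 and 1149 in Klf4 and 3732 and 4676 in OSK. Every factor library was above GFP, and both OSK libraries were more than 3 times above the highest single-factor library. The log2 change in OSK was 3.87, SE 0.18, limma adjusted p = 1.41e-10, a 14.7-fold difference of means. It was 1.67, SE 0.18, adjusted p = 2.08e-06 in Klf4, 1.32, SE 0.18, adjusted p = 1.55e-05 in Sox2 and 0.71, SE 0.18, adjusted p = 0.0045 in Oct4 (limma). The Oct4 call was lost without Oct4 replicate 1 (0.46, adjusted p = 0.118). OSK differed from each single line, by 3.16 from Oct4, 2.55 from Sox2 and 2.20 from Klf4 (SE 0.19 each; limma adjusted p from 3.14e-09 to 5.05e-07). The OSK change of COL7A1 did not differ at the threshold from the changes of Oct4, Sox2 and Klf4 added together (difference 0.17, 95% interval -0.58 to 0.92, limma adjusted p = 0.752).

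The type VIII chains form the open network of Descemet's membrane and of vessel walls, and they behaved differently from each other. COL8A1 had 10953, 16435 and 14741 normalised counts in GFP, 13797 and 14268 in Oct4, 26560.2 and 28429 in Sox2, 13489.9 and 13972 in Klf4 and 14697 and 14491 in OSK. Only Sox2 was called in the fit of all libraries (log2 change 0.99, SE 0.12, limma adjusted p = 5.53e-06), and without GFP replicate 1 COL8A1 was also called lower in Klf4 (-0.18, adjusted p = 0.0297). COL8A2 had 289, 298 and 345 normalised counts in GFP, 82.4 and 98.4 in Oct4, 28.1 and 39.4 in Sox2, 1500.2 and 1089 in Klf4 and 308 and 238 in OSK. It rose in Klf4 (2.04, SE 0.18, limma adjusted p = 2.41e-07) and fell in Oct4 (-1.77, SE 0.18, adjusted p = 8.64e-07) and Sox2 (-3.18, SE 0.18, adjusted p = 7.59e-10; limma). OSK overlapped GFP (-0.20, limma adjusted p = 0.422). The widest gap was that of Sox2 against Klf4 (-5.22, SE 0.19; limma adjusted p = 7.17e-12). COL10A1, the short-chain collagen of cartilage in growth plates, rose in Oct4. It had 423 and 275 normalised counts in Oct4, 18.9, 11.1 and 16.5 in GFP, 21.7 and 40.7 in OSK, 10.1 and 6.85 in Sox2 and 4.63 and 2.29 in Klf4. The change was 4.40, SE 0.42, limma adjusted p = 5.09e-07 in Oct4 and -1.91, SE 0.42, adjusted p = 0.00214 in Klf4 (limma). In OSK it was 0.93 (adjusted p = 0.0928), and it passed with edgeR (adjusted p = 0.0397), DESeq2 (adjusted p = 0.0476) and, in limma, without GFP replicate 1 and OSK replicate 1 (1.52, adjusted p = 0.0319).

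Among FACIT chains, which bind fibril surfaces, COL9A2 fell and COL12A1 moved in both directions. COL9A2, a chain of the type IX collagen of cartilage and vitreous, had 1744, 2565 and 2393 normalised counts in GFP, 842 and 904 in Oct4, 533 and 616 in Sox2, 1956 and 1377 in Klf4 and 606 and 456 in OSK. Oct4, Sox2 and OSK were below every GFP library, with log2 changes of -1.34 (SE 0.16), -1.94 (SE 0.16) and -2.06 (SE 0.16) (limma adjusted p = 8.07e-06, 9.51e-08 and 5.55e-08). In Klf4 the change was -0.43 (adjusted p = 0.0575), and -0.59 without GFP replicate 1 (adjusted p = 0.00248) or -0.68 without Klf4 replicate 1 (limma adjusted p = 0.0161). COL12A1, found beside type I fibrils, had 6629.5, 4918 and 4812 normalised counts in GFP, 9646 and 7854 in Oct4, 9499 and 8439 in Sox2, 2784 and 3779.8 in Klf4 and 4718 and 5602 in OSK. It rose in Oct4 (0.69, SE 0.14, limma adjusted p = 0.00128) and Sox2 (0.73, SE 0.14, adjusted p = 0.000645), fell in Klf4 (-0.73, SE 0.14, adjusted p = 0.000907; limma) and overlapped GFP in OSK. COL20A1 was low throughout, with 87.5 and 50.5 normalised counts in Sox2, 44.1 and 20.6 in Oct4, 16.9, 2.02 and 3.89 in GFP, 5.78 and 12.6 in Klf4 and 1.08 and 6.6 in OSK. It rose in Sox2 (3.40, SE 0.74, limma adjusted p = 0.00145) and in Oct4 (2.28, SE 0.74, adjusted p = 0.0234; limma), the latter lost in 5 of 16 alternatives, among them leaving out GFP replicate 2, GFP replicate 3 or Oct4 replicate 1.

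COL6A1, a chain of the beaded filaments of type VI, had 1273, 1609 and 1594 normalised counts in GFP, 1619.8 and 1755 in Oct4, 2749 and 2716 in Sox2, 1213 and 1472 in Klf4 and 1601 and 1905 in OSK. Both Sox2 libraries were above all others (log2 change from GFP 0.88, SE 0.11, limma adjusted p = 6.37e-06), and no other line was called. Without GFP replicate 1 it was also called lower in Klf4 (-0.26, limma adjusted p = 0.032). COL26A1 had 61.6, 27.3 and 34 normalised counts in GFP, 26.7 and 26.3 in Oct4, 33.7 and 28.3 in Sox2, 6.94 and 24 in Klf4 and 19.5 and 6.6 in OSK. It fell in OSK (-1.66, SE 0.52, limma adjusted p = 0.018) and Klf4 (-1.49, SE 0.52, adjusted p = 0.0373; limma). The Klf4 call was lost in 10 of 16 alternatives, among them leaving out GFP replicate 1, GFP replicate 3 or Klf4 replicate 1, and the OSK call was lost without OSK replicate 2 (-0.95, adjusted p = 0.27). The remaining other collagens called against GFP were low in counts and are named after their values were seen. COL14A1 was higher in Sox2 (2.19), COL16A1 lower in Sox2 (-0.82) and OSK (-1.56), and COL6A6 lower in Sox2 (-2.42). COL28A1 was higher in Oct4 (2.81) and COL9A3 higher in Klf4 (2.07; limma adjusted p from 0.000359 to 0.0383 for these 6 changes). COL28A1 reached the minimum only in both Oct4 libraries and GFP replicate 1, and COL14A1 only in both Sox2 libraries and GFP replicate 1. Each was therefore tested only because of the line where it was high, and its call is no independent support. Limma's F test over the 5 groups did not call COL28A1 (adjusted p = 0.0788). The COL16A1 change in Sox2 and the COL6A6 change lost their calls without GFP replicate 1 and OSK replicate 1 (adjusted p = 0.12 and 0.0869).

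Lines were then compared with each other. OSK against Oct4 gave 18 calls among the collagen genes (5 higher, 13 lower), where 40.3% of all genes were called (18.4% higher, 21.9% lower), and none of the 6 fibrillar genes called was higher in OSK. The largest falls from Oct4 to OSK were those of COL2A1 (-4.98), COL10A1 (-3.47), COL20A1 (-2.97) and COL1A1 (-2.18). OSK against Sox2 gave 17 (6 higher, 11 lower; 40.5% of all genes, 20% higher and 20.5% lower), with COL4A3 (3.62) and COL8A2 (2.99) highest and COL1A1 (-3.52) and COL4A1 (-2.63) among the lowest. OSK against Klf4 gave 20 (11 higher, 9 lower), where 21.5% of all genes were called (9.56% higher, 11.9% lower). COL10A1 (2.84), COL7A1 (2.20), COL4A3 (1.21) and COL11A1 (0.86) were among those higher in OSK than in Klf4. COL8A2 (-2.24), COL18A1 (-1.68) and COL4A1 (-1.59) were among those lower.

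Oct4 against Sox2 gave 17 calls (8 higher, 9 lower), where 33.4% of all genes were called (18% higher, 15.4% lower). COL10A1 (5.19) and COL4A3 (1.45) were among those higher in Oct4, and COL1A1 (-1.34) and COL8A1 (-0.97) among those lower. Oct4 against Klf4 gave 17 (10 higher, 7 lower), where 41.7% of all genes were called (21.8% higher, 20% lower). COL10A1 (6.31), COL2A1 (4.40) and COL5A2 (2.46) were among those higher in Oct4, and COL8A2 (-3.81) and COL18A1 (-1.52) among those lower. Sox2 against Klf4 gave 19 (13 higher, 6 lower), where 40.8% of all genes were called (20.1% higher, 20.7% lower). COL1A1 (2.75) and COL12A1 (1.46) were among those higher in Sox2, and COL4A3 (-2.42) among those lower. Over all 5 groups at once, limma's F test called 26 of the 35 collagen genes, where 65.7% of all genes were called.

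The log2 change in OSK was also compared with what adding up the log2 changes of Oct4, Sox2 and Klf4 would give, and 15 collagen genes departed from it (5 above, 10 below), where 35.9% of all genes did (15.6% above, 20.3% below). COL4A1, which rose in each single line and fell in OSK, departed by -4.15 (SE 0.43; limma adjusted p = 1.63e-06). COL4A2 (-3.19), COL5A2 (-3.55), COL5A1 (-2.45), COL1A1 (-1.48) and COL4A5 (-1.39) were below it as well. The genes above the sum were COL8A2 (2.72), COL9A2 (1.64), COL11A1 (1.53), COL4A3 (1.07) and COL4A4 (0.72). The level of Oct4 itself was not the same in the 2 lines that carried it. POU5F1, the gene of Oct4, had 67326 and 66823 normalised counts in Oct4 and 19020 and 19542 in OSK. In GFP it had 276, 252 and 262. The part of this difference in the sums, or in OSK against Oct4, was not tested. The split depended on the method: edgeR found 9 above and 10 below, DESeq2 8 and 9. When limma was run on TMM-rescaled values, the all-gene median of this departure shifted from -0.02 to -0.14, and 4 collagen genes lay above and 12 below.

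Reads on all 44 collagen genes made up 0.565% to 0.749% of the library in GFP, 0.640% and 0.667% in Oct4, 1.00% and 1.05% in Sox2, 0.793% and 0.805% in Klf4 and 0.555% and 0.578% in OSK. Both Sox2 libraries and both Klf4 libraries were above the highest GFP library, and Oct4 and the higher OSK library lay within the GFP range. The classes contributed differently. COL4A1 and COL4A2 together took 0.416% and 0.423% of reads in Sox2 and 0.0991% to 0.189% in GFP, while COL18A1 took 0.326% and 0.335% in Klf4 and 0.191% to 0.263% in GFP. Fibrillar chains took 0.0427% and 0.0529% in Klf4 and 0.0665% and 0.0722% in OSK, below the 0.0987% to 0.108% in GFP. These shares were not tested.

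**Figure D4:**
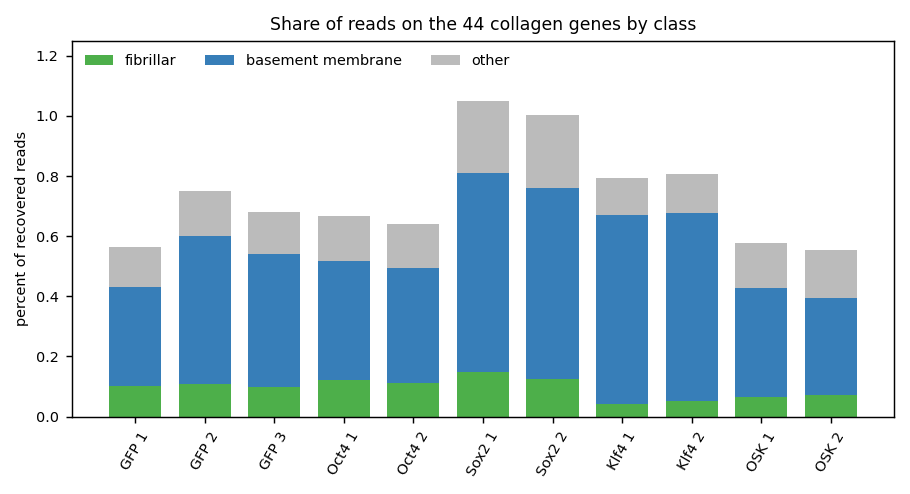
Percent of recovered reads on the 44 collagen genes in each of the 11 libraries, as stacked bars for fibrillar, basement membrane and other collagens. The Sox2 bars reach 1.00% and 1.05%, and the fibrillar part is smallest in the Klf4 libraries.

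Genes that act on collagen chains were read from lists written with earlier results of these data known. A gene is named mainly in the lines where its change was among the 3 largest of its list. It could be called in other lines too, as LAMA3 and NID1 were in all 4 and LOX also in OSK (1.18). Not every gene with such a change is named below. Among those passed over, LAMB3 had 282 and 273 normalised counts in Klf4 and 32.8, 14.2 and 13.6 in GFP. PRELP had 421 and 285 in Klf4 and 17.9, 4.05 and 4.86 in GFP. ITGB1 had 59881 and 59148 in Oct4 and 16262, 19477 and 18479 in GFP. Of 19 enzymes and chaperones that modify and fold the chains in the endoplasmic reticulum, 10 rose and 4 fell in Oct4, 14 rose and 2 fell in Sox2, 1 rose and 9 fell in Klf4, and 6 rose and 7 fell in OSK. These are 73.7%, 84.2%, 52.6% and 68.4% of the list, where 37.3%, 41.6%, 33.5% and 39.7% of all genes were called. The median log2 change was 0.23, 0.52, -0.32 and -0.25, beside -0.02, -0.02, -0.02 and -0.01 over all genes. P4HA3, a prolyl hydroxylase subunit, had 737 and 572 normalised counts in Oct4 and 67.5, 47.5 and 62.2 in GFP (3.45, SE 0.25, limma adjusted p = 2.38e-08). COLGALT2, a collagen galactosyltransferase, had 212 and 228 in Sox2, 18.9, 12.1 and 11.7 in GFP and 4.63 and 5.71 in Klf4 (3.89, SE 0.34, limma adjusted p = 1.49e-07 in Sox2). SERPINH1, the collagen chaperone HSP47, had 1075, 1509 and 1441 in GFP, 820.1 and 718 in Klf4 and 757 and 661 in OSK, below every GFP library in both lines (-0.79 and -0.91; limma adjusted p = 7.84e-05 and 1.39e-05). P3H2, a prolyl 3-hydroxylase of type IV chains, rose by 1.02 in Oct4 and 1.09 in Sox2 and was at -0.74 in Klf4 and -0.80 in OSK, all called.

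Of 17 genes for export, propeptide cleavage and cross-linking, 6 rose and 3 fell in Oct4, 5 and 3 in Sox2, 4 and 7 in Klf4, and 5 and 8 in OSK. These are 52.9%, 47.1%, 64.7% and 76.5% of the list, beside the same 37.3%, 41.6%, 33.5% and 39.7% of all genes. BMP1, the protease that removes the C-terminal propeptide of fibrillar chains, had 18555 and 19291 normalised counts in Klf4, 11765 and 12166 in OSK and 3736, 4272 and 3629.7 in GFP (2.29, SE 0.10, limma adjusted p = 1.83e-10 in Klf4). LOX, which cross-links collagen, had 10144 and 9876 in Oct4, 8742 and 9294 in Sox2 and 1952, 3146 and 2789.8 in GFP (1.96 and 1.81), while LOXL2 was lower in Klf4 (-2.06) and LOXL4 lower in Klf4 (-2.31) and OSK (-4.17). ADAMTS3, a protease of N-terminal propeptides, was lower in all 4 lines (-1.32 in Oct4, -1.92 in Sox2, -0.94 in Klf4 and -1.44 in OSK), and ADAMTS2 was lower in Oct4 (-0.84) and OSK (-1.57). Of 9 collagen receptors tested, 4 rose and 1 fell in Oct4, 7 rose and none fell in Sox2, 1 rose and 3 fell in Klf4, and 2 rose and 4 fell in OSK. These are 55.6%, 77.8%, 44.4% and 66.7%, beside 37.3%, 41.6%, 33.5% and 39.7% of all genes. ITGA1 and ITGA11, integrin subunits that bind collagen, were called in both directions. ITGA1 was at 1.37 in Sox2 and -1.16 in Klf4, and ITGA11 at 0.98 in Sox2, -1.50 in Klf4 and -2.21 in OSK.

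All 4 collagen-degrading proteases tested (MMP2, MMP14, CTSK and FAP) fell in Klf4 and in OSK, with median log2 changes of -0.72 and -1.49, where 16% and 20% of all genes were lower. In Oct4 1 rose and 2 fell, and in Sox2 2 rose and 2 fell (37.3% and 41.6% of all genes were called). FAP, a fibroblast activation protease, had 252, 322 and 240.1 normalised counts in GFP, 896 and 699 in Oct4, 55.5 and 105 in Klf4 and 41.2 and 78.1 in OSK. Among 5 fibril partners tested, FN1, the fibronectin gene, had 68911 and 61434 in Oct4, 47756 and 35718 in Sox2 and 5613, 7716 and 6460.4 in GFP (3.31, SE 0.17, limma adjusted p = 3.9e-10 in Oct4), and TNXB, tenascin X, had 5120.4 and 9173 in Klf4 and 267, 185 and 196 in GFP (limma adjusted p = 6.01e-11). Decorin and lumican (DCN and LUM), which are also on the list of 9 fibroblast and mesenchymal markers, had at most 12.3 normalised counts in any library. Of those 9 markers 6 reached the minimum, among them FAP and PDGFRB, which had 4529 to 11534. Of 14 non-collagen basement membrane genes, 5 rose and 4 fell in Oct4, 3 and 6 in Sox2, 6 and 4 in Klf4, and 7 and 3 in OSK. These are 64.3%, 64.3%, 71.4% and 71.4%, beside 37.3%, 41.6%, 33.5% and 39.7% of all genes. LAMA3, a laminin chain, was at -3.44 in Sox2. HSPG2 (perlecan) and LAMA5 rose in Klf4 (1.66 and 1.92), LAMA4 rose in OSK (1.36) and NID1 rose in Sox2 (1.98).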

How the data were processed

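PolyA RNA of 11 ARPE-19 libraries was extracted with TRIzol and made into libraries with the NEBNext Ultra II kit, per the labels' protocols. STAR 2.7.1a and featureCounts 1.6.2 are named in the submitters' processing notes, with no role or order. The strand setting and the annotation are not given in the sources used here. The deposited signal is gene counts that the authors divided by 1 factor per library. At least 99.992% of nonzero values were whole multiples of 1 read (tolerance 0.0061 normalised counts), which returned the whole reads.

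Deposited values were tested as log2(value + 1) with limma 3.58.1 (R 4.3.3, trended empirical Bayes) over all 11 libraries, for genes with at least 10 in at least 2 libraries (18828 genes), with Benjamini-Hochberg adjustment per comparison. This scale understates changes of low genes. The alternatives were edgeR 4.0.16 and DESeq2 1.42.0 on recovered reads, other scaling, pseudocounts, filters and groups, a replicate block and leaving out each library. The fit was tested on simulated data. Values in every library are given by rule for some of the collagen genes tested. They were among the 12 highest means or had called log2 changes of at least 1 in 2 or more of 4 comparisons with GFP. Genes of other lists were named mainly from the 3 largest called changes per comparison, and not all of these are named. The collagen genes and all lists were chosen with earlier results of these data known. The ratio tests, and leaving out both GFP replicate 1 and OSK replicate 1, were chosen after seeing the data.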

Additional observations from a re-analysis of the deposited data

How the results depend on the processing

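Of 76 changes of the 19 named genes against GFP, 7 took another sign under at least 1 alternative. None of the 7 was called in the fit of all libraries or where its sign differed. COL8A1 in Klf4, which was called lower without GFP replicate 1, ranged from -0.18 to 0.11. Other genes and the comparisons between factor lines were checked as counts of calls. Leaving out 1 library at a time gave 11 to 21 collagen genes called in Oct4 against GFP, 16 to 19 in Sox2, 13 to 20 in Klf4 and 11 to 15 in OSK, and the 11 without Oct4 replicate 1 (8 higher, 3 lower) was the one count that moved by over 1.5 times. Without Klf4 replicate 2 the Klf4 split was 7 higher and 6 lower, and without OSK replicate 2 the OSK split was 6 and 5. Without COL18A1, collagen genes held 0.430% of reads in GFP, 0.539% in Oct4, 0.828% in Sox2, 0.469% in Klf4 and 0.459% in OSK, and without COL1A1 0.980% in Sox2. For the named genes against GFP, 66 alternative fits lost a call and 21 gained one. The other 1128 did neither, and they include changes that were called in neither fit. On the recovered reads, edgeR called 17, 20, 15 and 15 collagen genes in Oct4, Sox2, Klf4 and OSK, and DESeq2 16, 21, 14 and 14. With the replicate number as a block, 15, 19, 16 and 14 collagen genes were called in Oct4, Sox2, Klf4 and OSK. Correlations of same-numbered libraries were -0.07 to 0.04 for all pairs of groups but GFP and OSK, where they were 0.44 and 0.31, so the numbers were not taken as a pairing. Depth limits genes with few reads, such as COL20A1 and COL26A1.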

Other observations

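Rows named as antisense to collagen genes were low. The strand setting of the counting is not stated, so reads of a gene and its antisense partner cannot be told apart. COL18A1-AS1 had 33.8, 27.3 and 26.3 normalised counts in GFP, 15.1 and 32.1 in Oct4, 30.3 and 12.8 in Sox2, 48.6 and 62.8 in Klf4 and 19.5 and 11 in OSK, so that Klf4 was highest for COL18A1-AS1 as for COL18A1. COL4A2-AS1 had 20.2 to 27.2 in GFP, 41.8 and 20.6 in Oct4, 31.4 and 48.8 in Sox2, 35.9 and 18.3 in Klf4 and 15.2 and 11 in OSK. COL6A4P2, a pseudogene of a type VI chain, had 22.8, 10.1 and 5.83 in GFP and at most 5.72 in any factor library. The highest GFP value was that of GFP replicate 1. Against GFP, COL6A4P2 was called lower in Sox2 alone (-2.31, limma adjusted p = 0.018). The Klf4 change of COL18A1-AS1 was not called (0.91, limma adjusted p = 0.116).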
